A study of Mus musculus with 8 samples.

Results

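Asporin (Aspn) and 9 other small leucine-rich proteoglycans and close relatives were followed in RNA from uterine stromal cells of mice. The 10 genes, out of 23420 gene symbols in the deposited tables, were taken by name: Aspn, Dcn, Lum, Bgn, Fmod, Ogn, Omd, Prelp, Podn and Ecm2. All 10 are listed, and 9 had enough reads to enter the comparison across all genes, while Omd did not. The set was chosen with the genotype differences of these libraries already known, so those differences are given here as a description and carry no test. Of the 8 libraries, all from day 3, 4 carried the label Erbb3f/f and the other 4 Erbb3d/d. By mouse convention f stands for a loxP-flanked (floxed) allele and d for the one left once Cre has deleted the floxed part, so both groups carry engineered alleles. The Cre line, the event from which day 3 is counted, the age of the mice, any treatment, and whether a library holds 1 or several animals are not given in the sources used here. The labels do not say that replicates came from separate animals, so each test measures the spread between these libraries, which may be technical.

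Small leucine-rich proteoglycans are secreted matrix proteins built around a curved array of leucine-rich repeats. Most bind collagen fibrils and set their thickness and spacing, and several also hold growth factors or engage cell surface receptors. Decorin and biglycan carry chondroitin or dermatan sulfate chains, lumican, fibromodulin and osteoadherin can carry keratan sulfate, and asporin as a rule carries no glycosaminoglycan chain. In the uterus decorin, lumican and biglycan are familiar products of the stroma, whose matrix is remodelled around implantation.

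Reads assigned to genes ranged from 8578575 to 12854367 per library. The level of a gene is given as CPM, its count scaled by TMM to the reads in genes of its library. The targeted gene Erbb3 spanned 7.40 to 12.3 CPM under Erbb3f/f and 7.36 to 17.6 CPM under Erbb3d/d, so it was not lower under the label that names its deletion, and a direction below follows the labels only. All 8 stromal markers were present, with a summed level of 5382 to 5771 CPM in Erbb3f/f and 3293 to 5129 CPM in the libraries labelled Erbb3d/d. All 8 had a lower mean under that label. All 9 smooth muscle markers were also present, summing to 1274 to 2342 CPM under Erbb3f/f and 1987 to 4634 CPM under Erbb3d/d, and 8 of the 9 had a higher mean in Erbb3d/d. The 11 epithelial markers summed to 848 to 1321 CPM and 1279 to 2033 CPM, with 9 higher in Erbb3d/d. The sums of smooth muscle and of epithelial markers overlapped between the labels, and so did those of every list that follows. For 7 endothelial markers they were 208 to 420 CPM and 195 to 434 CPM, with 6 higher in Erbb3d/d. For 6 pericyte markers they were 105 to 300.4 CPM and 127 to 234 CPM, with 3 higher. The 8 immune markers summed to 933 to 2346 CPM and 1304 to 1662 CPM, with 4 higher. The 4 mesothelial markers summed to 45.5 to 162 CPM and 27.4 to 126 CPM, with 0 higher. The 4 Schwann cell markers summed to 3.28 to 8.47 CPM and 3.94 to 9.44 CPM, with 1 higher, and Sox10 had no read in any library. In bulk RNA fewer cells of a type and less RNA per cell cannot be told apart.

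The members lie in a few places of the genome (GRCm38, GENCODE vM21). Ecm2, Aspn, Omd and Ogn follow each other on the plus strand of chromosome 13, at 49504810 to 49532789, 49544443 to 49567565, 49582462 to 49592822 and 49608046 to 49624501. All 4 lie inside the span of Cenpp, a centromere protein gene on the other strand, and an exon of Aspn shares sequence with an exon of Cenpp. How reads of that stretch were counted is not given in the sources used here, so they may come from either gene. Cenpp itself had only 12 to 33 reads per library. Dcn, at 97479609 to 97518143, and Lum, at 97565128 to 97572703, are neighbours on chromosome 10. Prelp, at 133910304 to 133921414, and Fmod, at 134037254 to 134048277, are on chromosome 1 on opposite strands. Prelp shares exonic sequence with the antisense gene Gm15851. Bgn is on chromosome X at 73483602 to 73495933, and Podn on chromosome 4 at 108014791 to 108096445. The coding sequences of Dcn and Bgn were the most alike of the 45 pairs, with 61.2% identical positions in a global alignment, followed by Aspn and Bgn with 56.7%. The longest stretch that transcripts of any pair shared exactly was 50 bases, shorter than the reads of 150 bases.

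Asporin is named for a run of aspartate near its start, and this run is shown because it sets Aspn apart from the other members. GENCODE's longest coding sequence of Aspn has 9 aspartate codons in a window of 12, a density that 0.232% of 21562 mouse genes reach. Omd comes next with 5, which 7.98% of genes reach, and Dcn and Bgn have 3, which 66.2% reach. In the lines that follow, capitals mark the aspartate codons GAT and GAC, and the stretches cover codons 31 to 50 of Aspn, 23 to 42 of Omd and 16 to 35 of Bgn.
Aspn: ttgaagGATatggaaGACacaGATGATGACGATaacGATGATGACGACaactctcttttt
Omd: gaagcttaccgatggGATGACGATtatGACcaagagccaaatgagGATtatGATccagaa
Bgn: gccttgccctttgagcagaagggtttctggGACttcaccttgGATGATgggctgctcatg

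Promoters are shown for 3 members. Aspn and Bgn were taken because their genotype groups did not overlap, in opposite directions. Ogn was taken from the same stretch of chromosome 13 as Aspn, though Ecm2 and Omd, not shown, lie closer to Aspn. The RefSeq table for GRCm38.p6 held a promoter for 8 of the 10 members, each with 250 bases before and 50 after the start. The Aspn promoter (chr13:49544193-49544492, plus strand) had 31.0% G and C, and 1.28% of 32851 mouse promoters had less. That of Ogn (chr13:49607765-49608064, plus strand) had 42.3%, and that of Bgn (chrX:73483351-73483650, plus strand) had 63.7%, against a median of 52.7% over all promoters. Capitals mark matches, on either strand, to 6 patterns: the TATA box TATAAA, the GC box GGGCGG, the AP-1 element TGANTCA, the SMAD element CAGACA, the hexamer AGAACA found in steroid receptor elements, and the CArG box of smooth muscle genes.
Aspn: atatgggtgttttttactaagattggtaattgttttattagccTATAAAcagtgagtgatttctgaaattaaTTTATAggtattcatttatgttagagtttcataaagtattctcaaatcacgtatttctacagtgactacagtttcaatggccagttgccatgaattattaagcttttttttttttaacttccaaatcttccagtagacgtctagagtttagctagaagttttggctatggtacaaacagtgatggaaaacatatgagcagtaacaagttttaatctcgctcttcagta
Ogn: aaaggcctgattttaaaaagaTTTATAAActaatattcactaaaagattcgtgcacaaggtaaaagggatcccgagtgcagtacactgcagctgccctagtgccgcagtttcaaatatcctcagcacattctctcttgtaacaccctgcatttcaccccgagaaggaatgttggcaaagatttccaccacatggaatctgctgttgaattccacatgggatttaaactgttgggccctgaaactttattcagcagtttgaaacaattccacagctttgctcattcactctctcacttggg
Bgn: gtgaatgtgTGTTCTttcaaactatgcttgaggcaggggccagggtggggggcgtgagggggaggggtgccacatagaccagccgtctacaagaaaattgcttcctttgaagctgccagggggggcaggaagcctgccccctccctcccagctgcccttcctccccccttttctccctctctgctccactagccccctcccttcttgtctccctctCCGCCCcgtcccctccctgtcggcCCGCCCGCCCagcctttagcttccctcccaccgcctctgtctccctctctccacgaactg
Aspn and Ogn each held the TATA pattern, which 13.6% of all promoters of this length hold, in Ogn as overlapping matches on both strands. Relative to the start these matches lay at -207 and -178 bases in Aspn and at -229 and -227 bases in Ogn. Of the 8 members with a promoter only these 2 held the TATA pattern, so the promoters of Ecm2 and Omd did not. Bgn held 3 GC boxes, 2 of them overlapping, and the hexamer, patterns that 35.7% and 19.0% of promoters hold. None of these 3 promoters held the CArG box (1.63% of promoters), the AP-1 element (7.81%) or the SMAD element (21.0%). A match is a stretch of letters and no evidence of binding.

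Aspn, whose protein binds collagen and TGF-beta, had the highest fold difference of the 9 members tested. The Erbb3f/f libraries, from replicate 1 to replicate 4, held 14.5, 15.5, 5.89 and 13.6 CPM (149, 148, 75 and 120 reads). The Erbb3d/d libraries, in the same order, held 75.4, 36.1, 34.4 and 81.5 CPM (768, 310, 437 and 930 reads). The groups did not overlap, and within Erbb3d/d replicates 1 and 4 were at about the same high level while replicates 2 and 3 lay lower. The mean was 12.4 ± 4.38 CPM under Erbb3f/f and 56.9 ± 25.1 CPM under Erbb3d/d (SD over 4 libraries), 4.63-fold higher by the fit across all genes (log2 fold change 2.21, SE 0.39). Among 11038 genes with a mean of at least 10 CPM, 7 genes including Aspn had a log2 fold change this high or higher. Only 2 of the 10 members had groups that did not overlap, Aspn higher and Bgn lower. Over the 14598 genes tested, 2.57% did not overlap with Erbb3d/d higher and 2.48% with Erbb3d/d lower, 5.05% in all. These shares stand beside the members' count as background, and since the set was chosen on this contrast nothing is read from them.

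**Figure D1:**
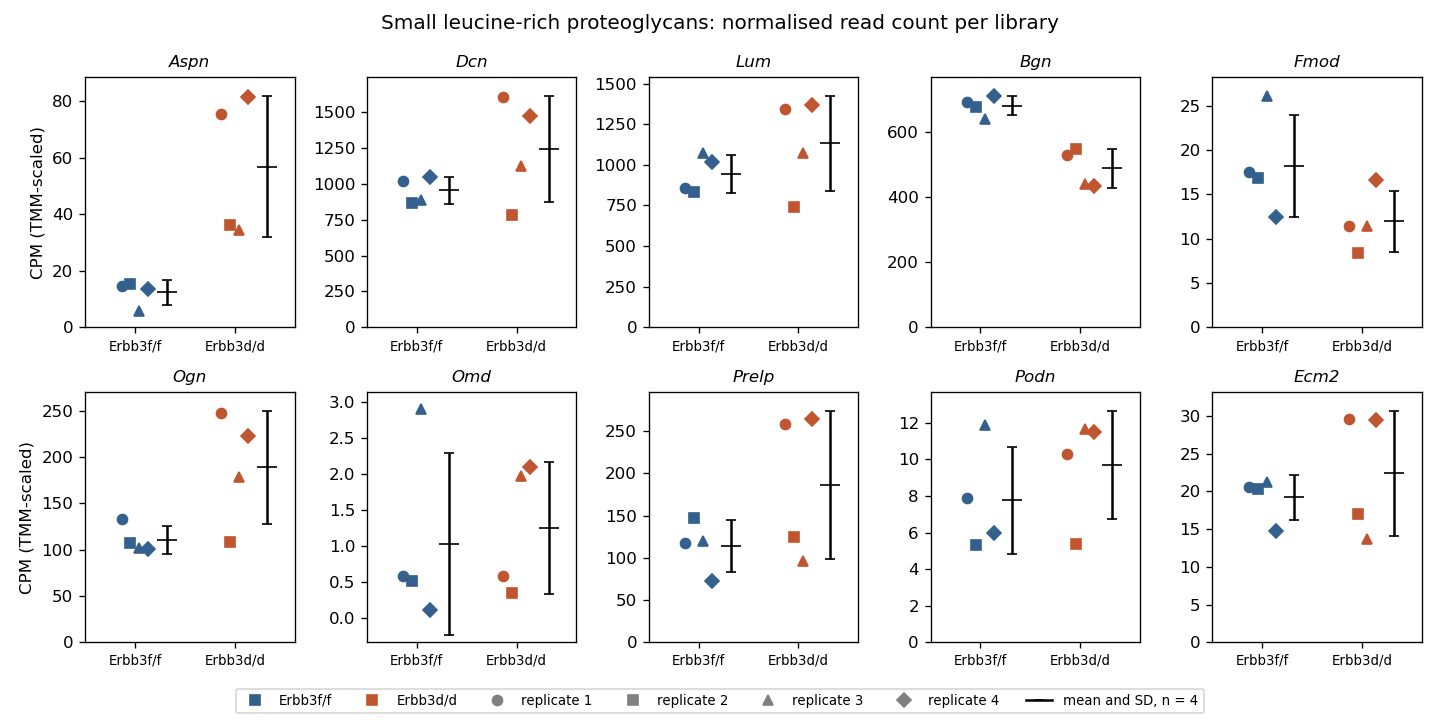
Normalised read count (CPM) of each member in the 4 Erbb3f/f (blue) and 4 Erbb3d/d (orange) libraries, with marker shape for the replicate number and a black bar for the mean and SD (n = 4). Aspn lies between 5.89 and 15.5 CPM under Erbb3f/f and between 34.4 and 81.5 CPM under Erbb3d/d, Bgn shows the opposite separation, and the groups of the other 8 members overlap.

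Dcn and Bgn, the decorin and biglycan genes, are the close relatives of Aspn, and their means differed in opposite directions. Dcn had 1018, 865, 885 and 1051 CPM in Erbb3f/f replicates 1 to 4 and 1603, 784, 1121 and 1472 CPM in Erbb3d/d replicates 1 to 4. Erbb3d/d replicate 2 was the lowest of all 8 libraries and the other 3 were the highest. The log2 fold change of Dcn was 0.38 (SE 0.20). Bgn had 692, 678, 642 and 712 CPM under Erbb3f/f and 530.2, 549, 440.3 and 434 CPM under Erbb3d/d, so every Erbb3d/d library was below every Erbb3f/f library. Its mean was 681 ± 29.4 CPM under Erbb3f/f and 488 ± 59.5 CPM under Erbb3d/d (SD over 4 libraries), 1.39-fold lower in Erbb3d/d (log2 fold change -0.48, SE 0.11). Bgn also varied least of the members within a genotype, with an SD of 0.13 on the log2 scale, below that of most genes tested (percentile 17.8). The summed stromal markers moved with Bgn (r = 0.91 over the 8 libraries after each genotype's mean was subtracted), while the 9 other members ran against them (r from -0.70 for Fmod to -0.31 for Ecm2, with -0.66 for Lum, -0.58 for Dcn and -0.31 for Aspn). The part of these markers in the members' levels was not tested. The ratio of Dcn to Bgn reads was 1.47, 1.27, 1.38 and 1.47 in the Erbb3f/f libraries, in replicate order, against 3.02, 1.43, 2.55 and 3.39 in the Erbb3d/d libraries. By this ratio Erbb3d/d replicate 2 sat among the Erbb3f/f libraries.

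Lum, Fmod, Prelp and Omd belong to class II of the family. Lum, the lumican gene, had 856, 831, 1071 and 1015 CPM under Erbb3f/f and 1346, 740.5, 1074 and 1367 CPM under Erbb3d/d replicates 1 to 4. As with Dcn, Erbb3d/d replicate 2 was the lowest library and the other 3 were the highest (log2 fold change 0.26, SE 0.19). Fmod, which encodes fibromodulin, a modulator of collagen cross-linking, had 17.5, 16.8, 26.1 and 12.4 CPM under Erbb3f/f and 11.4, 8.39, 11.4 and 16.7 CPM under Erbb3d/d. Of the Erbb3d/d libraries only replicate 4 was above the lowest Erbb3f/f library (log2 fold change -0.61, SE 0.26). Prelp, which encodes a protein that links collagen to basement membranes, had 117, 147, 120.1 and 72.7 CPM under Erbb3f/f and 259, 125, 96.8 and 264 CPM under Erbb3d/d. Its Erbb3d/d libraries formed 2 levels, replicates 1 and 4 above all others and replicates 2 and 3 within the Erbb3f/f range (log2 fold change 0.70, SE 0.35). Omd, the osteoadherin gene best known from bone, was near the limit of detection. In replicate order the Erbb3f/f libraries held 6, 5, 37 and 1 reads and the Erbb3d/d libraries 6, 3, 25 and 24, which is 0.113 to 2.90 CPM under Erbb3f/f and 0.350 to 2.10 CPM under Erbb3d/d.

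Ogn, Podn and Ecm2 are more distant relatives. Ogn, which encodes osteoglycin (mimecan), had 133, 107, 101 and 101 CPM under Erbb3f/f and 247, 108, 178 and 222 CPM under Erbb3d/d. Erbb3d/d replicates 1, 3 and 4 exceeded every Erbb3f/f library, and replicate 2 lay inside their range (log2 fold change 0.78, SE 0.23). Podn, the podocan gene, had 7.88, 5.33, 11.9 and 5.99 CPM under Erbb3f/f and 10.3, 5.36, 11.7 and 11.5 CPM under Erbb3d/d, with the highest library in Erbb3f/f (log2 fold change 0.32, SE 0.31). Ecm2, an extracellular matrix gene with leucine-rich repeats next to Aspn, had 20.6, 20.3, 21.3 and 14.8 CPM under Erbb3f/f and 29.5, 17.0, 13.7 and 29.4 CPM under Erbb3d/d (log2 fold change 0.22, SE 0.25). Its pattern over the Erbb3d/d libraries was that of Prelp, high in replicates 1 and 4 and low in 2 and 3. Of all 10 members, 8 had a higher and 2, Bgn and Fmod, a lower mean in Erbb3d/d. Of the 9 members tested 7 had a log2 fold change above 0, as did 48.0% of all genes tested. Erbb3d/d replicates 1 and 4 each exceeded every Erbb3f/f library for 6 members, replicate 3 for 4 and replicate 2 for 1, Aspn. For these counts by replicate no share over all genes was computed. The set was chosen on this contrast, so nothing is read from the counts of members by direction or by replicate.

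Across all 14598 genes, edgeR's quasi-likelihood test called 0 genes at an adjusted p under 0.05 (0% of those tested), so no member was called, while 1695 genes (11.6%) had an unadjusted p under 0.05, 6.64% higher and 4.97% lower in Erbb3d/d. DESeq2 called 270 genes (1.78% of those with an adjusted p), among them Aspn, Bgn and Ogn. The same 3 members were among the 259 genes (1.75%) that edgeR called without Erbb3d/d replicate 2, and it called 0 when any other single library was left out. With the replicate number as a block 52 genes (0.356%) were called, among them Aspn. The choice of the members used this contrast, so nothing is read from these calls.

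**Figure D2:**
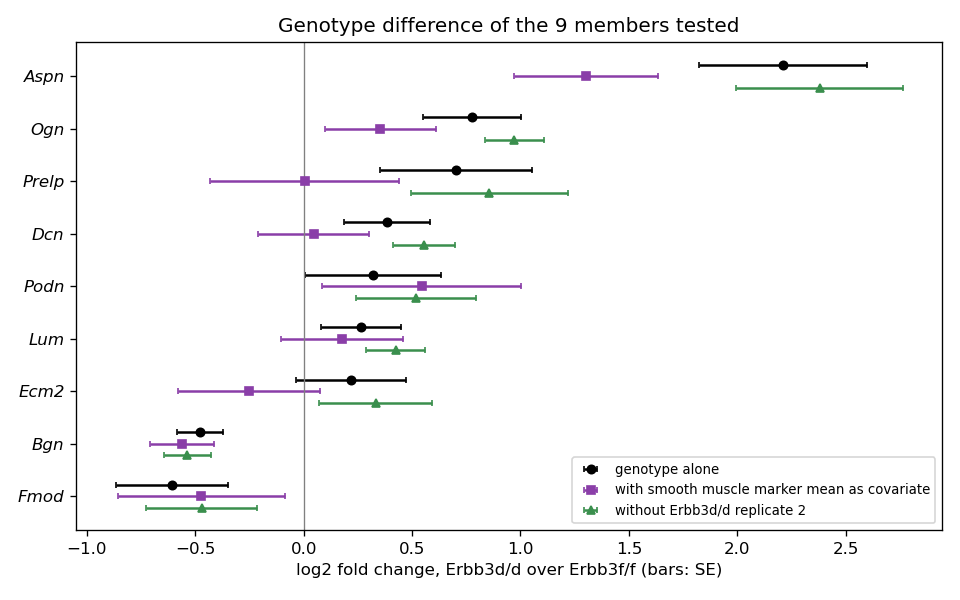
Log2 fold change (Erbb3d/d over Erbb3f/f) of the 9 members tested, with SE, for genotype alone (black), with the smooth muscle marker mean as a covariate (purple) and without Erbb3d/d replicate 2 (green). Aspn stays highest in all 3 fits (2.21, 1.30 and 2.38), and the values of Prelp and Dcn with the covariate are 0.01 and 0.05.

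Smooth muscle markers were read beside the members because most of them had a higher mean in Erbb3d/d, as Aspn did. Most epithelial and endothelial markers also had a higher mean there. The summed level of the smooth muscle markers in the Erbb3f/f libraries, in the order of their replicate numbers, was 2342, 2333, 1274 and 1635 CPM, and in the Erbb3d/d libraries 4634, 2496, 1987 and 2804 CPM. Aspn followed these sums within a genotype (r = 0.80 over 8 libraries after genotype means were subtracted, without a test). Prelp (r = 0.66), Ecm2 (r = 0.62), Ogn (r = 0.56), Dcn (r = 0.48) and Bgn (r = 0.46) did so less closely. Lum had an r of 0.11, Fmod one of -0.145, Podn one of -0.24 and Omd one of -0.49. With the marker mean as a covariate, Aspn had a log2 fold change of 1.30 (SE 0.33) in place of 2.21, and Ogn one of 0.35 (SE 0.26) in place of 0.78. Prelp had 0.01 (SE 0.44) in place of 0.70 and Dcn 0.05 (SE 0.26) in place of 0.38. The sign of Ecm2 turned, to -0.25 (SE 0.33), and Bgn had -0.56 (SE 0.15) in place of -0.48. Synpo2, the 1 marker of the 9 with a lower mean in Erbb3d/d, made up 885 of the 2333 CPM in Erbb3f/f replicate 2 and 323 of the 1987 CPM in Erbb3d/d replicate 3. Without it the 8 remaining markers summed, in replicate order, to 1712, 1448, 825 and 1099 CPM in the Erbb3f/f libraries and to 3962, 1790.4, 1664 and 2447 CPM in the Erbb3d/d libraries. With the mean of these 8 as the covariate, an alternative chosen after the data were seen, the log2 fold change was 1.16 (SE 0.33) for Aspn, 0.25 (SE 0.25) for Ogn and -0.55 (SE 0.16) for Bgn. The signs of Prelp (-0.09, SE 0.45) and Dcn (-0.04, SE 0.26) then turned as well. With the epithelial marker mean as the covariate, Aspn had a log2 fold change of 1.84 (SE 0.47) and Ogn one of 0.68 (SE 0.31). In that fit Prelp had 0.81 (SE 0.51), Dcn 0.31 (SE 0.28), Ecm2 0.35 (SE 0.36) and Bgn -0.40 (SE 0.15). Beyond these values, the part of smooth muscle or epithelial RNA in the members' levels was not tested.

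**Figure D3:**
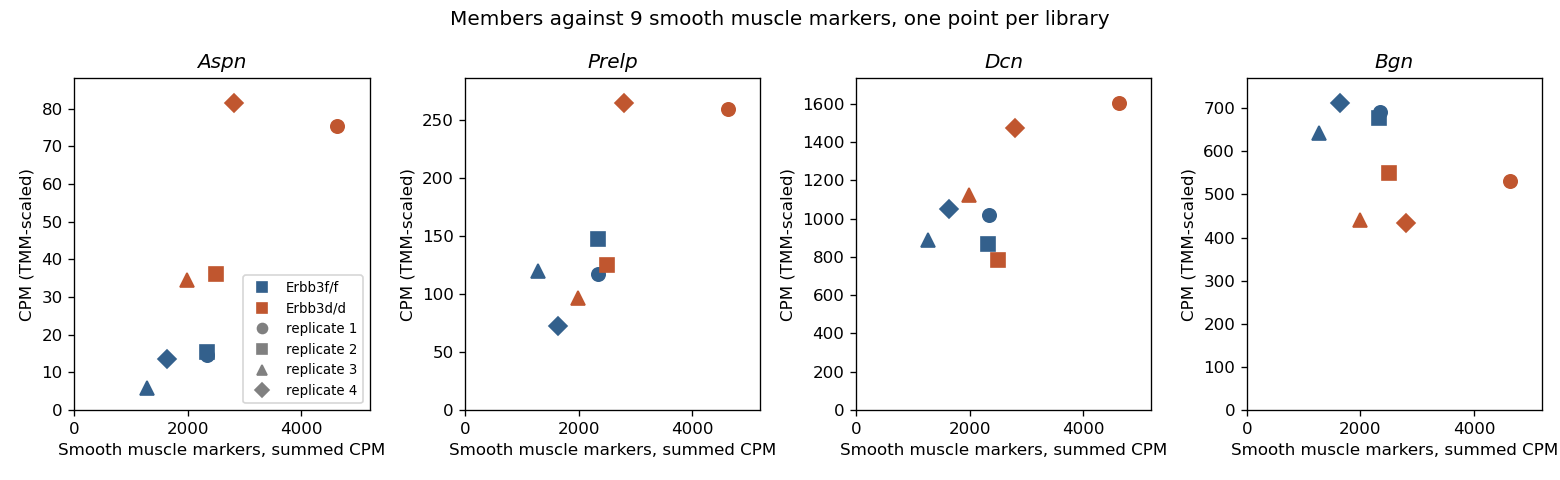
CPM of Aspn, Prelp, Dcn and Bgn against the summed CPM of 9 smooth muscle markers, 1 point per library, with colour for the genotype and shape for the replicate number. The sums span 1274 to 2342 CPM for Erbb3f/f and 1987 to 4634 CPM for Erbb3d/d, and the place of single libraries along this axis depends on Synpo2, which makes up 885 of 2333 CPM in Erbb3f/f replicate 2.

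The order of the levels within a library was not used to choose the genes. The genotype differences, known when the set was chosen, do enter each mean over all 8 libraries. Per kilobase of merged exons, the mean over all 8 libraries was highest for Lum (424 CPM per kb, range 302 to 558), followed by Dcn (188, range 134 to 275), Bgn (95.9, range 71.2 to 117), Ogn (58.3, range 39.2 to 96.4), Prelp (41.6, range 20.1 to 73.1), Aspn (14.7, range 2.50 to 34.6), Fmod (4.57, range 2.54 to 7.91), Ecm2 (3.67, range 2.41 to 5.21), Podn (2.04, range 1.25 to 2.78) and Omd (0.508, range 0.0502 to 1.29). In the Erbb3f/f libraries Lum ranked 39, Dcn 148 and Bgn 249 among 13698 genes with a length, while Aspn ranked 7996. Aspn had 5.25 ± 1.86 CPM per kb in Erbb3f/f, beside 5.51 ± 1.73 for Fmod, and 24.2 ± 10.7 in Erbb3d/d (SD over 4 libraries), beside 51.5 ± 24.3 for Prelp. Fmod had 3.62 ± 1.04 in Erbb3d/d, so the mean of Aspn was above that of Fmod in Erbb3d/d and below it in Erbb3f/f. Neighbours in the order were compared within libraries by a two-sided exact sign-flip permutation test, adjusted over the 9 pairs. Lum exceeded Dcn in 8 of 8 libraries, by a mean log2 ratio of 1.18 ± 0.16 (SD), with an exact p of 0.00781, the smallest this permutation test can give, and an adjusted p of 0.0141. Of the 9 pairs, 6 passed. The place of Aspn follows the genotype contrast, so nothing is read from the tests of the pairs that hold Aspn. The levels of Bgn and Ogn (adjusted p = 0.0703, 6 of 8 libraries), Aspn and Fmod (adjusted p = 0.0791, 7 of 8) and Fmod and Ecm2 (adjusted p = 0.188, 5 of 8) were not separated by this exact test. Bgn was below Ogn only in Erbb3d/d replicate 1 (86.9 and 96.4 CPM per kb) and Erbb3d/d replicate 4 (71.2 and 86.6 CPM per kb). The test of that pair thus also follows the genotype contrast known when the set was chosen, and nothing is read from it. The place of Dcn depended on the length used. Its merged exons, which include those of transcripts annotated with a retained intron, cover 5838 bases, and its longest protein-coding transcript has 1758 bases. With that length, a choice made after the data were seen, Dcn came first with 626 CPM per kb, ahead of Lum with 424 and Bgn with 242, and Ecm2 stood above Fmod. With the longest transcript of any kind as the length, Dcn and Bgn were not separated, and Bgn and Ogn were.

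**Figure D4:**
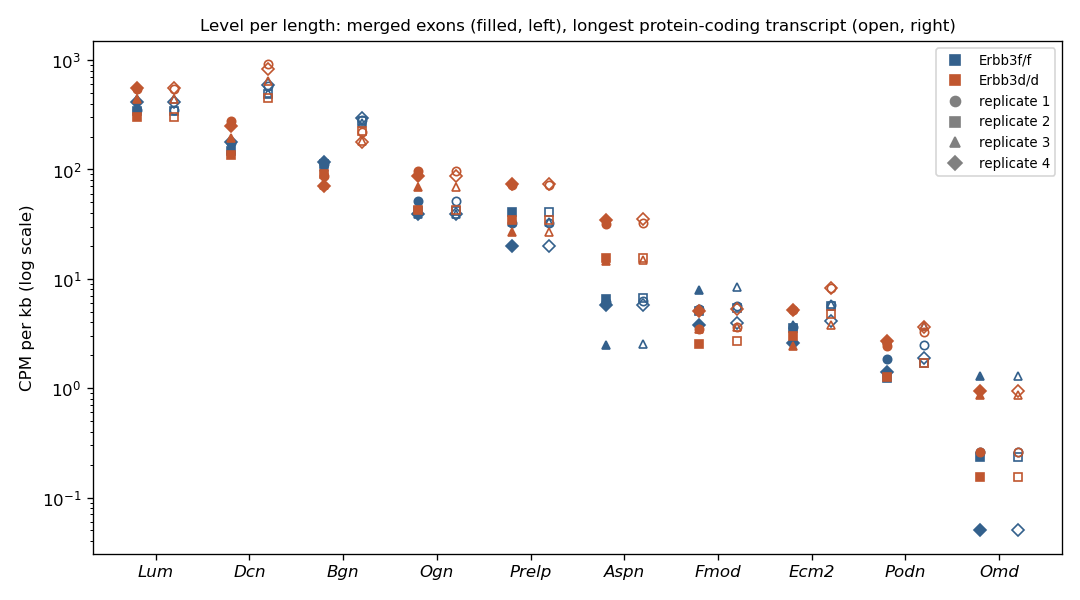
Level of each member per kilobase on a log scale, 1 point per library, with length taken as merged exons (filled, left) or as the longest protein-coding transcript (open, right). Dcn moves from a mean of 188 to 626 CPM per kb and from below to above Lum, and Bgn from 95.9 to 242, while Aspn, at 14.7 and 14.9, moves little.

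How the members varied together was described on log2(CPM + 0.5) after each genotype's mean was subtracted. All genes of a library share its depth and scaling factor, and these correlations are given without a test. Of the 45 pairs, 34 had an r above 0. The highest were Prelp and Ecm2 (r = 0.97), Dcn and Ogn (r = 0.93), Fmod and Omd (r = 0.91) and Dcn and Lum (r = 0.88). Of these pairs only Dcn and Lum are genomic neighbours, 47.0 kb apart. Among the genes of the chromosome 13 cluster, Aspn had an r of 0.64 with Ogn, 0.57 with Ecm2 and -0.41 with Omd, which starts 14.9 kb after Aspn ends. Bgn went against Omd (r = -0.84), Fmod (r = -0.73) and Podn (r = -0.70). Omd and Podn followed the mesothelial markers (r = 0.83 and 0.85), whose sum was highest in Erbb3f/f replicate 3, at 162 CPM, and Erbb3d/d replicate 3, at 126 CPM, and Podn also followed the immune markers (r = 0.82). Omd had 37 reads or fewer per library, so each r that holds Omd rests on few reads. The part of these cells in the levels of Omd and Podn was not tested.

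The genes most like Aspn were ranked among 11030 genes with a mean of at least 10 CPM, family members left out, by Pearson's r over the 8 libraries. The first was Kcnmb1, the beta subunit of a calcium-activated potassium channel of smooth muscle (r = 0.99). It had 14.3, 17.8, 8.16 and 12.3 CPM in Erbb3f/f replicates 1 to 4 and 50.4, 26.5, 27.1 and 46.8 CPM in Erbb3d/d replicates 1 to 4, with replicates 1 and 4 above 2 and 3 as for Aspn. Fam118a (r = 0.98), the actin depolymerising factor gene Dstn (r = 0.97), Slc6a17 (r = 0.97) and Myo5c (r = 0.97) came next. With genotype means subtracted, Kcnmb1 was again first (r = 0.96), before Chka, Uqcrh, Fam118a and Afap1 (r = 0.95 each). For Dcn the closest genes over the 8 libraries were Plekha6 (r = 0.96), Insig2, Coro2b, the collagen-binding integrin gene Itga11 and Spop (r = 0.94 each). With genotype means subtracted they were Klhl18, Lamtor5, Mif4gd, Plekha6 and Serping1 (r = 0.95 to 0.98). Each r is among the highest of 11030 taken over 8 libraries and is given without a test. Those without genotype means subtracted also hold the contrast on which the members were chosen. The source of the RNA of Aspn and Dcn was not tested, and nothing on it is read from these genes.

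Genes that modify, process or bind these proteoglycans were read in 7 lists of 82 genes, of which 72 had enough reads to test. By edgeR none of them passed an adjusted p of 0.05. The unadjusted p was below 0.05 for 18, 10 higher and 8 lower in Erbb3d/d, which is 25.0% of those tested. Of all genes tested 11.6% passed this threshold, 6.64% higher and 4.97% lower. The lists were chosen with earlier results of these data known, so nothing is read from the 25.0% beside this share. The count was 11 without Erbb3f/f replicate 4 and 11 without Erbb3d/d replicate 4, 10 with smooth muscle (9 without Synpo2) and 6 with epithelial markers as a covariate, and 8 without Erbb3d/d replicates 3 and 4 together, the last and that without Synpo2 chosen after the data were seen. No share over all genes was computed under these settings, so the counts under them stand without a background. With genotype alone the median log2 fold change was -0.02 over these 72 genes and -0.01 over all genes.

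Among other small leucine-rich and related proteins, 5 of 9 were tested, 1 was higher and 1 lower at an unadjusted p under 0.05. Tsku, the tsukushi gene, had 90.4 ± 7.12 CPM under Erbb3f/f and 50.9 ± 19.0 CPM under Erbb3d/d (SD over 4 libraries), and edgeR gave it an adjusted p of 0.257. Optc, the opticin gene, had 2.25 ± 1.44 CPM and 5.82 ± 3.83 CPM.

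Of 22 enzymes that build chondroitin and dermatan sulfate chains, all were tested, 2 were higher and 2 lower at an unadjusted p under 0.05. The sulfotransferase genes Chst7 (6.46 ± 1.42 CPM in Erbb3f/f, 13.6 ± 6.25 CPM in Erbb3d/d) and Chst11 (124 ± 17.7 and 175 ± 45.1 CPM) were higher. Chsy1, a chondroitin synthase (293 ± 35.5 and 225 ± 47.3 CPM), and Chst13 (7.83 ± 2.12 and 4.34 ± 1.99 CPM) were lower (SD over 4 libraries). The median of the 22 was -0.02 on the log2 scale. Of 8 genes for keratan sulfate and tyrosine sulfation, 7 were tested, and the galactosyltransferase genes B4galt1 (log2 fold change -0.26, SE 0.09) and B4galt4 (-0.43, SE 0.17) were lower and the tyrosine sulfotransferase gene Tpst2 (0.27, SE 0.10) higher at an unadjusted p under 0.05.

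The 10 collagen genes whose products the family binds were all tested, and 1, Col12a1, was past an unadjusted p of 0.05, with 34.2 ± 8.14 CPM under Erbb3f/f and 21.5 ± 5.25 CPM under Erbb3d/d (SD over 4 libraries). The most abundant of them per length, Col6a1, had 4698 ± 1008 and 3898 ± 789 CPM. Of 9 propeptide proteases and lysyl oxidases 8 were tested, and the collagen cross-linking enzymes Lox (89.6 ± 3.77 and 133 ± 46.6 CPM) and Loxl4 (5.50 ± 1.68 and 13.5 ± 7.96 CPM) were higher at an unadjusted p under 0.05.

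Among 13 growth factors and receptors reported to bind the family, all tested, 4 were higher and 1 lower at an unadjusted p under 0.05, and the median log2 fold change was 0.28. Bmp2 (18.8 ± 4.01 and 32.3 ± 4.13 CPM), Bmp4 (13.2 ± 4.04 and 23.7 ± 8.88 CPM) and Met, a receptor antagonised by decorin (21.6 ± 2.89 and 43.9 ± 21.4 CPM), were higher. Egfr, another receptor that decorin binds, had 129 ± 29.8 CPM under Erbb3f/f and 73.2 ± 27.0 CPM under Erbb3d/d (SD over 4 libraries), a log2 fold change of -0.82 (SE 0.26) and, by edgeR, an adjusted p of 0.313. The TGF-beta genes had log2 fold changes of -0.04 (Tgfb1), 0.19 (Tgfb2) and 0.01 (Tgfb3), with SE of 0.16 each. Of 11 other matrix proteoglycans 7 were tested, and Vcan, the versican gene, was lower at an unadjusted p under 0.05, with 1200 ± 230.3 CPM under Erbb3f/f and 827 ± 304 CPM under Erbb3d/d (SD over 4 libraries). Srgn, the serglycin gene, had 431 ± 108 and 449 ± 97.0 CPM.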

How the data were processed

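Polyadenylated RNA was sequenced in 8 libraries. The authors deposited raw read counts per gene symbol, 1 table per library. HISAT2, SAMtools, HTSeq and StringTie and the builds mm10 and GRCm38 are named in the submitters' processing notes without roles or versions, and the annotation and counting options are not given in the sources used here. Each table closes with 5 lines that name no gene, which hold 70.9% to 73.0% of its entries and were left out of library sizes and tests. The largest of them, for entries assigned to no feature, held 48.3% to 50.8%, and that for entries not aligned held 12.9% to 15.7%.

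From these counts, genes were kept by filterByExpr and scaled by TMM, and the genotypes were compared with edgeR 4.0.16 (limma 3.58.1, R 4.3.3): glmQLFit with robust estimation, glmQLFTest on genotype, with p-values adjusted by the Benjamini-Hochberg method over the 14598 genes tested. CPM is the deposited count divided by the scaled library size. SE is the log2 fold change divided by the square root of the test's F. Marker sums and correlations used these CPM, the latter as log2(CPM + 0.5). Positions and lengths came from GENCODE vM21 (GRCm38), where 21740 symbols matched 1 gene, with Python 3.11.15, pandas 2.3.3 and Biopython 1.88. The fit was tested on simulated data. DESeq2 1.42.0, other scalings, filters, covariates, the replicate block and leaving out each library were the alternatives.

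The members and lists were chosen with earlier results of these data known. Named genes are all members, up to 4 genes per list with the smallest p under 0.05, filled to 2 by level per length, and the 5 genes most like Aspn and Dcn, over all libraries and within genotypes. The TGF-beta genes and Cenpp were named outside this rule, after their values were seen.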

Additional observations from a re-analysis of the deposited data

Results flagged for a closer look

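Of 20 groups of 4 libraries, 1 for each member and genotype, 2 held a library far from the rest, where about 1 in 20 groups, here 1, would be flagged by chance. Omd in Erbb3f/f replicate 3 had 2.90 CPM, from 37 reads, and the next highest library of its genotype had 0.584 CPM. Ecm2 in Erbb3f/f replicate 4 had 14.8 CPM, and the next lowest library of its genotype had 20.3 CPM.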

How the results depend on the processing

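The count of genes with an adjusted p under 0.05, 0 in the edgeR test, was 270 with DESeq2 (212 higher, 58 lower) and 52 with the replicate block (39 higher, 13 lower), and ranged from 0 to 259 when single libraries were left out, the 259 without Erbb3d/d replicate 2. Aspn, Bgn and Ogn were among the calls of DESeq2 (1.78% of genes with an adjusted p) and without Erbb3d/d replicate 2 (1.75% of genes tested), and Aspn among those of the block (0.356%). The deviations of same-numbered libraries correlated at 0.241, 0.172, 0.0998 and 0.152, all above 0 but not all above 0.1, the level set for treating the numbers as a pairing, and 5 of 8 libraries correlated best with their own number, a hint from the data. The highest correlation, 0.318, was between libraries of different numbers, Erbb3f/f replicate 4 and Erbb3d/d replicate 3. The labels name no shared batch, and whether the numbers mark one was not settled. The log2 fold changes of Aspn (1.16 to 2.40), Ogn (0.25 to 0.97), Bgn (-0.56 to -0.33), Fmod (-0.88 to -0.38), Lum (0.13 to 0.43) and Podn (0.02 to 0.60) kept their sign under all 19 alternatives, those of Dcn (-0.04 to 0.56) and Prelp (-0.09 to 0.92) under 18, and that of Ecm2 (-0.32 to 0.40) under 17. The exceptions were the smooth muscle covariate, without Synpo2 for Dcn and Prelp and in both forms for Ecm2. The count of 18 pathway genes past an unadjusted p of 0.05 was 10 with smooth muscle (9 without Synpo2) and 6 with epithelial markers as a covariate and 8 without Erbb3d/d replicates 3 and 4, and ranged from 11 to 25 when single libraries were left out. By list, in the order other leucine-rich proteins, chondroitin and dermatan sulfate enzymes, keratan sulfate and tyrosine sulfation, collagens, proteases and lysyl oxidases, growth factors and receptors, and other proteoglycans, the counts 2, 4, 3, 1, 2, 5 and 1 were 1, 2, 1, 2, 1, 3 and 0 with smooth muscle markers (the same without Synpo2 but for 2 growth factors and receptors), 1, 0, 2, 1, 0, 2 and 0 with epithelial markers, and 2, 2, 1, 1, 1, 1 and 0 without Erbb3d/d replicates 3 and 4. They were 2, 4, 5, 1, 2, 7 and 1 with the block and ranged over 1 to 2, 2 to 6, 1 to 4, 1 to 2, 1 to 3, 3 to 7 and 0 to 2 when single libraries were left out. For the counts the cause was not tested, and for the pathway counts no share over all genes was computed under these settings. Of the 9 neighbour pairs in the order of levels, 5 to 7 passed under every length, scaling and left-out library tried. Aspn and Fmod, a pair from which nothing is read, were separated without Erbb3f/f replicate 3. Omd, with 37 reads or fewer per library, was too shallow for a comparison.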

Other observations

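The share of the family's level per kilobase of merged exons that fell to Aspn was, in replicate order, 0.834%, 0.942%, 0.318% and 0.734% under Erbb3f/f against 2.85%, 2.45%, 1.77% and 3.18% under Erbb3d/d. The share of Bgn was 13.4% to 15.9% in Erbb3f/f and 7.74%, 14.4%, 8.77% and 6.53% in the Erbb3d/d libraries, where replicate 2 stood inside the Erbb3f/f range. Dcn, Lum and Bgn together held 85.8% to 90.7% of the family's level in Erbb3f/f and 80.9% to 85.4% in Erbb3d/d. The reads of Dcn and Lum had a ratio of 0.827 to 1.19 in Erbb3f/f and 1.04 to 1.19 in Erbb3d/d. These shares come from the same contrast as the choice of the genes and were not tested.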
